A study of Mus musculus with 5 samples.

Results

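The genes described here are 10 genes of interleukin-6 (IL6) family signalling, chosen by name and with earlier results of these data known. They are the ligands Il6 and Lif, the receptor chains Il6ra, Lifr, Osmr and Il6st, the transducer Stat3, and Socs3, Bcl3 and Cebpd, which STAT3 is known to switch on. Of these 10 genes, 9 had a row among the 27729 genes of the files and Cebpd was not analysed here. The 8 genes other than Il6 and Cebpd reached at least 10 expected counts in some library, as 13346 genes of the whole series did, and are the members counted from here on. Il6ra reached that level only through the libraries of days 5, 10 and 14, so a difference from day 0 was built into its passing.

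Most cytokines of the IL6 family act through gp130, the receptor chain encoded by Il6st. It acts with a further chain, such as IL6RA for IL6, LIFR for LIF and OSMR for oncostatin M. The receptor complex brings Janus kinases together, which phosphorylate STAT3, and phosphorylated STAT3 enters the nucleus and binds DNA. One of its targets, Socs3, encodes an inhibitor that binds gp130 and the kinases and closes the loop. The pathway maintains mouse embryonic stem cells in culture, turns on Gfap in neural precursors that become astrocytes, and drives acute phase genes in liver and in injured tissue. RNA levels do not measure phosphorylation of STAT3.

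Total RNA was sequenced from mouse embryonic fibroblasts (MEFs) of the ICR strain, which are connective tissue cells grown out of embryos without head and inner organs. The day 0 library came from MEFs in their growth medium with fetal bovine serum (FBS), and the libraries of days 2, 5, 10 and 14 came from MEFs kept for that time in 5C medium, a defined medium without serum that the study used to turn MEFs into neuron-like cells. As the study describes it, 5C medium holds DMEM/F12, N2 supplement, basic fibroblast growth factor, vitamin C, 2-mercaptoethanol and leukemia inhibitory factor (LIF). If these cultures had that medium, LIF protein was added to all but that of day 0. Serum was withdrawn at the same time, and the effects of both cannot be told apart here. The labels name no altered allele and no sorting of cells. The labels name the medium 6C, no source used here says whether it differs from 5C medium, and their treatment text puts the last collection 1 day later than the day label of that library.

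Each time point had 1 library. Days were therefore compared without a test, and every interval below is a 95% interval for counting error only, which covers neither cultures nor library preparation. The expected counts, RSEM's estimates of reads per gene, totalled 3890334 in the day 0 library, the deepest, and 2253748 in the day 2 library, the shallowest. Normalized counts are expected counts scaled between libraries by the TMM method. A change is a log2 ratio of normalized counts with 1 added to each, its interval was computed without the added 1, and a gene is said to have risen or fallen where this change passed 2-fold. All 10 listed fibroblast markers had 10 or more counts, and their sum lay between 32700 and 59574 normalized counts in the 5 libraries, most of it collagen RNA. On days 10 and 14, 4 of the 10 had fallen, among them Thy1, from 744 normalized counts on day 0 to 230 on day 10, and Twist2, from 272 to 39.9, while Col3a1 and Pdgfra had risen. The sum of 10 macrophage markers was 283 normalized counts on day 0 and 2030, 3625, 1977 and 1369 on days 2, 5, 10 and 14. The sum of 7 Schwann cell and neural crest markers was 79.9 normalized counts on day 0 and 165, 881, 5159 and 6786 on the later days. The sum of 5 astrocyte markers was 24.7 normalized counts on day 0 and highest on day 10, at 415, that of 6 endothelial markers was 274 on day 0 and 10.7 on day 14, and that of 7 neuron markers was 681 on day 0 and between 240 and 381 later. On each of days 5, 10 and 14, 2 of the neuron markers had risen and 3 had fallen, Rbfox3 was at 0 throughout, and Tubb3 read 22.1 normalized counts on day 0 and 161 on day 14 where Stmn2, the largest part of the sum, read 448 and 163. In a bulk library fewer cells of a type and less RNA per cell cannot be told apart.

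The genes took 3 courses. Socs3 and Bcl3 were over 2-fold above day 0 on day 2 already and stayed above it on every later day. Stat3 and the 4 receptor chains had their highest normalized count on day 10 and a lower one on day 14. Lif was high on days 2 and 14 and near its day 0 level on day 10. On day 2 Lif, Il6ra, Socs3 and Bcl3 had risen, 4 of 8 members, while 15.2% of all genes tested had. Of these, Il6ra rested on 3 counts and did not pass 2-fold with TPM values (0.43), centred TPM values (0.52) or a pseudocount of 5 (0.80). On day 5 it was Il6ra, Lifr, Socs3 and Bcl3, again 4 of 8 against 20.2% of all genes. On day 10 it was 6 of 8 against 28.7%, all but Lif and Osmr. On day 14 it was 7 of 8 against 24.5%, all but Osmr. No member fell below day 0 past 2-fold on any day, where 13.1%, 13.6%, 22.3% and 19.9% of all genes tested did on days 2, 5, 10 and 14. The median change of the 8 members was 1.20, 1.59, 2.39 and 2.48 on the log2 scale on days 2, 5, 10 and 14, and that of all genes tested was -0.03, 0.05, 0.14 and 0.07. These 4 comparisons share the day 0 library.

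**Figure D1:**
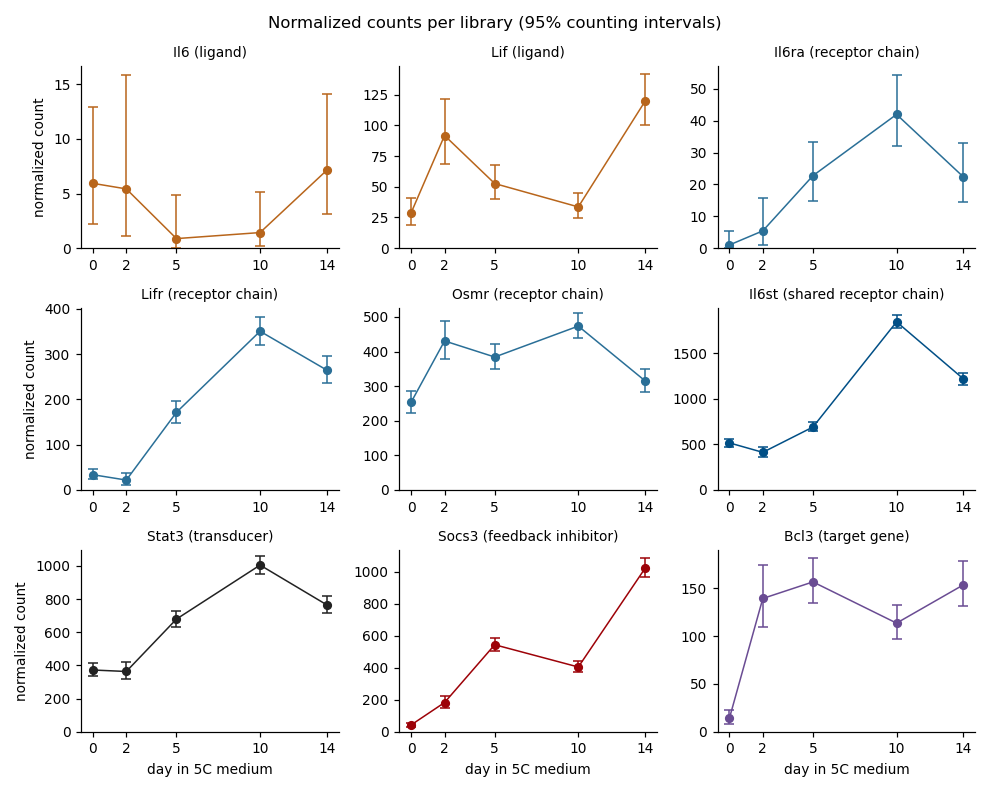
Normalized counts (vertical axes, from 0) of 9 genes in the libraries of days 0, 2, 5, 10 and 14 (horizontal axes), 1 point per library, with 95% Poisson intervals of the counts as bars. Stat3, Il6st, Lifr and Il6ra peaked on day 10, while Lif and Socs3 were highest on day 14, and Bcl3 stayed between 114 and 157 from day 2 on.

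Among the ligands, Il6 (chr5:30013114-30019981, plus strand, mm10), the founding cytokine of the family, was at the limit of detection. Its expected counts, in order of day, were 6, 3, 1, 2 and 8. The intervals of all 5 libraries overlapped. Those of each change from day 0 and of each step between neighbouring libraries included no change, and other pairs of days were not compared.

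Lif (chr11:4257557-4272514, plus strand) had expected counts of 29, 50.7, 60.1, 47 and 134 in order of day, which scaled to 28.7, 91.7, 52.6, 33.6 and 120 normalized counts. The day 2 and day 14 libraries thus stood apart from the other 3. Lif rose by day 2, with a log2 change of 1.64 (interval 1.00 to 2.40), and read 0.85 on day 5. The day 10 value was 0.22 (-0.47 to 0.95), and Lif had risen again by day 14, at 2.02 (1.47 to 2.69). From day 10 to day 14 alone the log2 change was 1.81 (1.35 to 2.35), and Lif and Socs3 were the 2 of 8 members that rose in this step, in which 4.73% of all genes tested did and 8.33% fell. The counts are of the cells' own Lif RNA and do not see any LIF protein in the medium.

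Of the receptor chains, Il6st (chr13:112464070-112510086, plus strand), which most ligands of the family use, had 517, 413, 690, 1845 and 1218 normalized counts in order of day. The day 2 library was the lowest and the day 10 library the highest. The log2 change from day 0 was -0.32 (-0.56 to -0.10) on day 2 and 0.42 on day 5, and Il6st had risen on day 10, by 1.83, and on day 14, by 1.24. Of its 4 steps between neighbouring libraries that from day 5 to day 10 was the largest, with a log2 change of 1.42 (1.30 to 1.53).

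Lifr (chr15:7090614-7197489, plus strand), the chain that binds LIF, had expected counts of 34, 12.1, 196, 491 and 296 and normalized counts of 33.6, 21.8, 172, 351 and 265. The 3 later libraries were above both early ones with no overlap of intervals. The change on day 2 was -0.60 (-1.72 to 0.35), and on day 5 Lifr had risen by 2.32. On day 10 it had risen by 3.34 (2.88 to 3.93). On day 14 it was still 2.94 above day 0.

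Il6ra (chr3:89864059-89913196, minus strand), the chain specific to IL6, had expected counts of 1, 3, 26, 58.8 and 25. With 1 count on day 0 its changes were imprecise. The day 2 value of 1.69 (-1.18 to 8.17) passed 2-fold on 3 counts, and by day 10 Il6ra had risen by 4.43 (2.88 to 10.7). The step from day 2 to day 5 measured 1.89 (0.36 to 4.44) and the one from day 5 to day 10 measured 0.86 (0.20 to 1.61). Macrophages are known to express Il6ra, and the macrophage markers moved in the same direction from day 0 to day 5, with 10 of 10 past 2-fold on day 2, Ptprc among them on 1 count, and 9 of 10 past it on day 5, when Itgam had fallen past it. Their sum was highest on day 5, and Il6ra on day 10. Between these days 6 of the markers read lower, among them Lyz2, Cd68 and Csf1r, and Adgre1, Cd14, Mrc1 and Ptprc read higher. Ptprc, the defining leukocyte marker, had 0, 1, 8, 22 and 4 counts in order of day. Their part in the level of Il6ra was not tested. The annotation also places 242 exon bases of an antisense gene, Gm42809, on the exons of Il6ra, and no source used here says whether strand was used in counting.

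Osmr (chr15:6813577-6874969, minus strand), which pairs with gp130 for oncostatin M, was the 1 member that did not pass 2-fold on any day. Its normalized counts in order of day were 253, 431, 384, 473 and 315. All 4 later libraries read above day 0 and none by 2-fold, with log2 changes of 0.76 (0.50 to 1.03), 0.60, 0.90 and 0.31. Osm, its ligand, was at 0 counts on days 0 and 2 and at 2 or fewer on the later days.

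Stat3 (chr11:100885098-100939540, minus strand), the transcription factor that all of these receptors act on, had expected counts of 376, 201, 776, 1407 and 855. These scaled to 372, 363, 679, 1005 and 764 normalized counts. The day 2 library equalled day 0 within counting error, with a log2 change of -0.04 (-0.29 to 0.22), and the day 5 value was 0.87. On day 10 Stat3 had risen by 1.43 (1.27 to 1.60). On day 14 the rise was 1.04 (0.86 to 1.22), an interval that reaches below 2-fold. Between day 10 and day 14 the log2 change was -0.39 (-0.52 to -0.27). The 3′ ends of Stat3 and Stat5a overlap, with 72 shared exon bases on opposite strands, and Stat5a held at most 168 counts in any library.

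From day 10 to day 14 Stat3 and the 4 receptor chains all read lower, none by 2-fold, with log2 changes of -0.39 for Stat3, -0.40 for Lifr, -0.59 for Osmr, -0.60 for Il6st and -0.88 (-1.65 to -0.22) for Il6ra. The interval of each lay below 0. Lif, Socs3 and Bcl3 read higher in the same step, at 1.81, 1.34 and 0.43. The median of the 8 members was -0.40 and that of all genes tested 0.02.

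**Figure D2:**
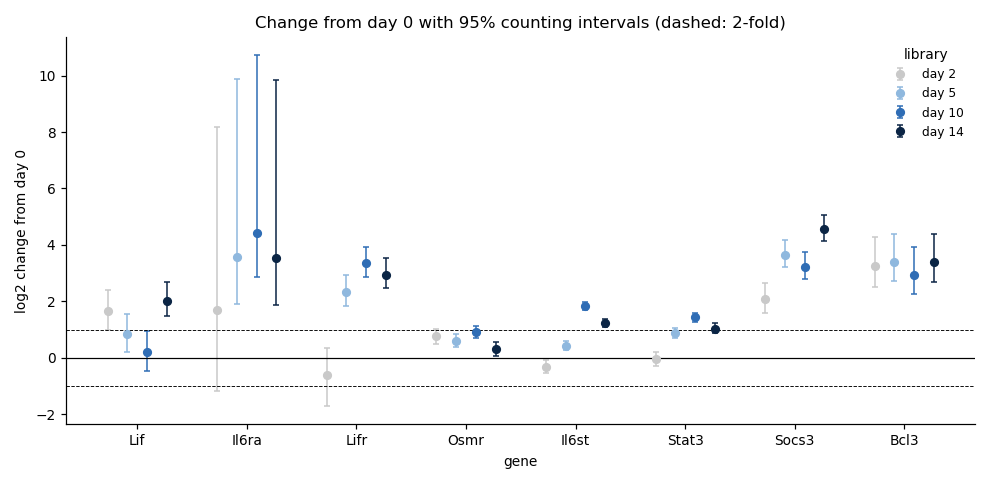
Log2 change from day 0 (vertical axis) of the 8 members (horizontal axis) on days 2, 5, 10 and 14, 1 point per library with 95% counting intervals as bars, and dashed lines at 2-fold. Socs3 and Bcl3 lie above the upper line on all 4 days, Stat3 and Il6st on days 10 and 14, and Osmr on none.

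Socs3 (chr11:117966079-117970047, minus strand), the feedback inhibitor, had expected counts of 43, 101, 622, 567 and 1145 in order of day. In normalized counts this was 42.6, 183, 544, 405 and 1023. Each later library was above day 0 with no overlap of intervals, and the day 10 library was below that of day 5. Its log2 change from day 0 was 2.08 (1.57 to 2.65) on day 2 and reached 3.65 on day 5. It was 3.22 on day 10. By day 14 Socs3 had risen by 4.56 (4.15 to 5.06), which is 23.5-fold. Between day 5 and day 10, when Stat3 and Il6st read higher, Socs3 measured -0.43 (-0.59 to -0.26), and between day 10 and day 14, when they read lower, it rose by 1.34 (1.19 to 1.49).

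Bcl3 (chr7:19808462-19822770, minus strand), which encodes a nuclear partner of NF-κB proteins, had expected counts of 14, 77, 179, 159 and 172. The normalized counts of 13.9, 139, 157, 114 and 154 formed a step between day 0 and day 2 and no trend after it. The log2 changes from day 0 were 3.24 (2.50 to 4.27), 3.41, 2.95 and 3.38. NF-κB signalling and macrophages are known sources of Bcl3 RNA too, and the macrophage marker sum was 283 normalized counts on day 0 and 2030 on day 2. Its part in the level of Bcl3 was not tested. The antisense gene Gm16175 shares 161 exon bases with Bcl3 and held at most 4.17 counts.

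Socs3 and Bcl3 had risen on day 2, when Stat3 had not, so the sequences in front of their starts are shown with that of Stat3. They are read 5′ to 3′ on the minus strand in the RefSeq sequence of GRCm38.p6, from 250 bases before the start up to the last base outside annotated exons, and capitals mark the letters TTCNNNGAA, the palindrome that STAT dimers bind, which reads the same on both strands.
Socs3, chr11:117969452-117969616: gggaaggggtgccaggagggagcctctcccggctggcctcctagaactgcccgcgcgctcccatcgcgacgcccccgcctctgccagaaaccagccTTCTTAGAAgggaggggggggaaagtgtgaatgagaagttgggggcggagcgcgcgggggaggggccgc
Bcl3, chr7:19822771-19823005: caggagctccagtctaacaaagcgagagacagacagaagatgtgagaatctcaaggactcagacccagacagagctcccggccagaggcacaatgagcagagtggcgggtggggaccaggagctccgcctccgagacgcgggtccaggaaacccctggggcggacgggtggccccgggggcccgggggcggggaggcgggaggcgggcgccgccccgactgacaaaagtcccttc
Stat3, chr11:100939541-100939790: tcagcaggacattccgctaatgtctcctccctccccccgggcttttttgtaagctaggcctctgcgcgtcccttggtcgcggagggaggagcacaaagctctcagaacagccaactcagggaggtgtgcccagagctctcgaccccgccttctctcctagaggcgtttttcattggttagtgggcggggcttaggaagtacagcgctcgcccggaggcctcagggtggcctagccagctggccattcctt

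The capitals in the Socs3 sequence, TTCTTAGAA, lie 154 to 146 bases before the RefSeq start. That start and the stretch printed for Socs3 lie within the gene span given above, which the annotation extends further upstream. Windows of 300 bases, 250 before and 50 after the start, were given for 9 of the 10 genes, in 10 windows, and Socs3 was the only one of the 9 whose window held TTCNNNGAA. Of all 32851 windows of that length 8.30% held it, and 1.15% held the stricter TTCCNGGAA. Of the other letters searched on both strands, TTGCNNAA, as C/EBP proteins bind, stood in the window of Il6 alone and in 10.8% of all windows, and GGGNNNNNCC, a loose form of an NF-κB site, in the windows of 8 of the 9 genes and in 50.8% of all windows. A match is a description of letters and not of binding, and windows without a match say nothing about sites elsewhere.

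Levels of different genes were compared per length, in the deposited TPM values, which divide counts by the gene length given for each library and set each library to 1000000. On day 0 the order was Stat3 at 29.0 TPM, Il6st at 23.8, Osmr at 16.3, Socs3 at 5.88, Bcl3 at 3.54, Lif at 2.56, Il6 at 1.94, Lifr at 1.22 and Il6ra at 0.10. Neighbours from Socs3 down to Lifr overlapped in their counting intervals, and Stat3, Il6st, Osmr and Socs3 did not. On day 2 Bcl3 led with 40.4 TPM, while Osmr, Stat3, Socs3 and Il6st followed at 23.6 to 17.4 TPM with each overlapping its neighbour. The length given for Bcl3 differed by library, at 1390 bases on day 0, 1035 on day 2 and 1552 on day 5. Its lead on day 2 rests in part on that length, which the counting interval does not cover. On day 5 Socs3 led with 123 TPM before Stat3 with 87.6 TPM. On day 10 Stat3 and Il6st stood together at the top, at 197 and 196 TPM with overlapping intervals, and Socs3 came next at 126 TPM. On day 14 Socs3 led with 259 TPM, before Stat3 with 121 and Il6st with 98.1, and no intervals among these 3 overlapped. Il6ra and Il6 took the last 2 places on days 5 and 14.

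A ratio of 2 genes within a library does not depend on how libraries are scaled to each other, but it does depend on what differs between libraries by gene length, as given further on. The day 0 library had a Socs3 level of 20.3% (14.4 to 27.8) of the Stat3 level in TPM. The day 2 library had 90.4% (70.0 to 115) and the day 5 library 140%. In the day 10 library it was 63.9% (57.8 to 70.4), and in the day 14 library it was 215% (196 to 235). Among the libraries in 5C medium the ratio was lowest on day 10. Socs3 is the shorter gene of the pair, and relative to genes of like length the lowest was day 2, where the change of Socs3 exceeded that of Stat3 by 1.99 on the log2 scale, against 2.36 on day 10. Bcl3 made up 12.2% (6.55 to 20.6) of the Stat3 level in the day 0 library, 174% (128 to 221) in the day 2 library and 32.5% in the day 10 library. The length given for Bcl3 was shortest on day 2, which raises that ratio. Stat3 and Il6st stayed closer to each other, with a TPM ratio between 1.00 on day 10 and 1.75 on day 5.

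Osmr, Lifr and Il6ra were set against Il6st in the same way. Osmr stood at 68.6% (58.8 to 79.7) of the Il6st level in TPM in the day 0 library and at 136% (113 to 163) in the day 2 library. It then stood at 84.4%, 38.2% and 37.7% on days 5, 10 and 14. Lifr stood at 5.13% (3.52 to 7.28) and 4.89% on days 0 and 2, and at 22.6% (19.2 to 26.4), 15.6% and 18.3% on days 5, 10 and 14. Il6ra was at 7.83% (5.08 to 11.6) of Il6st or less in every library. Osmr RNA was thus above that of Il6st per length on day 2, and on days 10 and 14 it was further below it than on day 0, with no overlap of intervals.

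**Figure D3:**
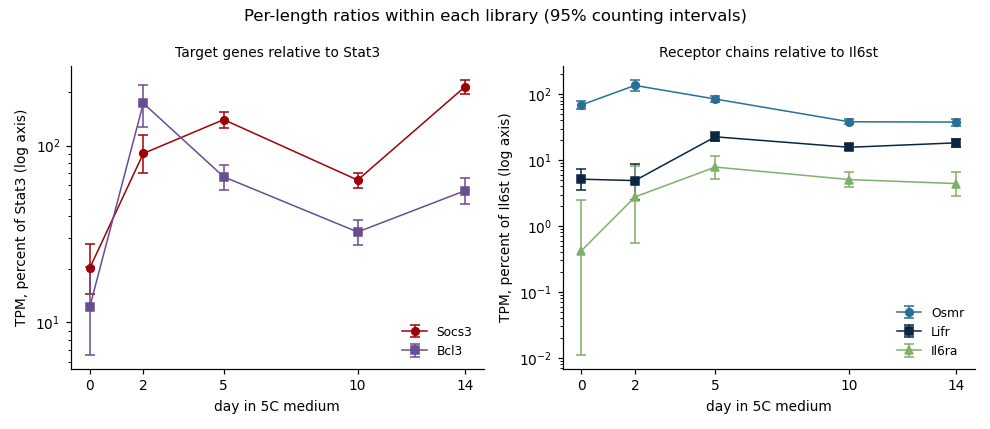
Ratios of TPM within each library, in percent on log axes, by day (horizontal axes), with 95% counting intervals as bars. In the left panel Socs3 relative to Stat3 reads 20.3% on day 0 and 215% on day 14, with a dip to 63.9% on day 10, and in the right panel Osmr relative to Il6st reads 136% on day 2 and 37.7% on day 14.

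Long genes and short genes moved apart between these libraries, and this touches the members. Among the genes tested, the 668 longest, with a median length of 8015 bases, had a median log2 change of 1.13 on day 10, and the 668 shortest, with a median of 640 bases, one of -1.76. From day 10 to day 14 the signs were opposite, at -0.54 and 0.46. Il6st (7584 bases) and Lifr (8880 bases) belong to the longest of the 20 length bins, Osmr (5301 bases) and Stat3 (4334 bases) to bins 18 and 17, Socs3 (2552 bases) to bin 11 and Bcl3 (1375 bases) to bin 4. With each change taken relative to the median of genes of like length, Stat3 read 0.69 on day 10 and 0.58 on day 14, and Il6st 0.70 and 0.62, so that neither passed 2-fold. Lifr then read 2.21 and 2.32, Osmr 0.03 and -0.15, Socs3 3.05 and 4.39, and Bcl3 3.59 and 3.81. The members that had risen then numbered 4 on day 10, with 23.8% of all genes tested, and 5 on day 14, with 22.3%. From day 10 to day 14 the values relative to like length were -0.14 for Stat3, -0.06 for Il6st, 0.13 for Lifr, -0.23 for Osmr and -0.74 for Il6ra, so that Stat3, Il6st and Osmr came closer to 0 and Lifr changed sign. Socs3 and Lif remained risen in that step, at 1.32 and 2.02. RNA quality was not measured in the values used here.

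**Figure D4:**
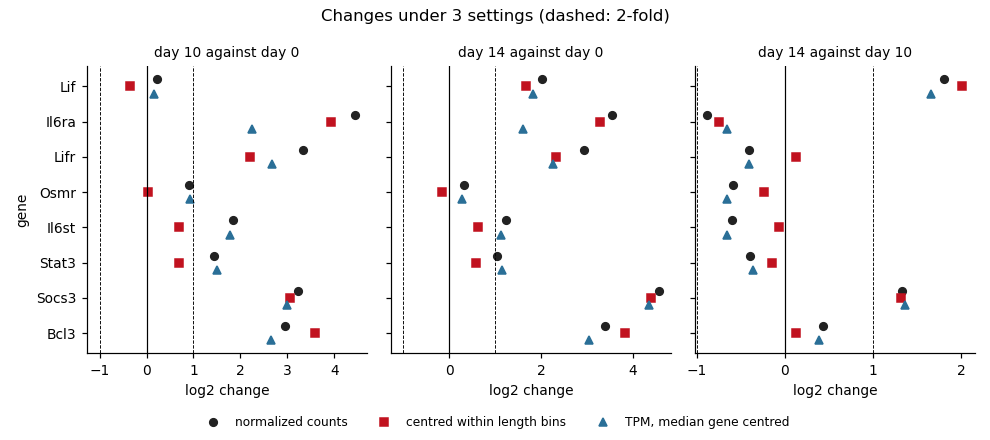
Log2 changes (horizontal axes) of the 8 members (vertical axis) for day 10 and day 14 against day 0 and for day 14 against day 10, from normalized counts (circles), relative to genes of like length (squares) and from TPM with the median gene set to no change (triangles), with dashed lines at 2-fold. Relative to like length Stat3 and Il6st lie inside 2-fold in all 3 panels, while Socs3 and Lifr stay above it on days 10 and 14 against day 0.

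The rest of the pathway was followed in 6 lists, and the genes named from them are those with the largest change among genes with 100 or more counts, unless said otherwise. Of 8 other ligands 4 passed the filter on counts. Of these 4, Cntf and Il11 fell on day 2, with a list median of -1.48 against -0.03 for all genes. Il11 then had 0 counts, against 8.83 on day 0. Cntf fell on day 5, and both fell on day 10, although neither did on day 10 relative to genes of like length. Of all genes tested 13.1%, 13.6% and 22.3% fell on days 2, 5 and 10. Clcf1, a ligand of the ciliary neurotrophic factor receptor, had 52.5, 43.4, 46.4, 85.0 and 246 normalized counts in order of day, and was above day 0 past 2-fold on day 14, by 2.21 (1.80 to 2.68). It was the 1 ligand of the list to be so, where 24.5% of all genes tested were. Relative to genes of like length and with TPM values Cntf was too. From day 10 to day 14 Clcf1, Cntf and Il11 all rose, 3 of 4 against 4.73% of all genes, with a list median of 1.66. Il11, on 2 and 11.1 counts, passed the filter only through the day 14 library, so that its rise in this step was built in. Like Lif, all 3 read highest on day 14. Against day 0, however, Cntf read 0.40 (-0.07 to 0.88) and Il11 read 0.17 (-1.27 to 1.59) on that day.

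Of the 6 other receptor chains 2 passed the filter. Il11ra1, the chain for IL11, read 241, 512, 368, 321 and 419 normalized counts and rose on day 2 only, by 1.09 (0.84 to 1.34), although near-identical copies of this gene make its counts uncertain. Cntfr, the other one, fell on day 2, where it had 5 counts.

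The next list holds 9 Janus kinases and other STATs. Of 8 that passed the filter 2 had risen on day 2, Jak3 and Stat2, then Jak2, Jak3, Stat2, Stat5a and Stat5b on day 5 and 6 on each of days 10 and 14, and none had fallen. The shares of all genes tested that had risen were 15.2%, 20.2%, 28.7% and 24.5%, and Jak3 passed the filter only through later libraries. Their median changes were 0.58, 1.23, 1.60 and 1.66 on days 2, 5, 10 and 14. Relative to genes of like length the numbers were 3 on day 10 and 5 on day 14, against 23.8% and 22.3% of all genes. The medians were then 0.74 and 1.20. Stat2, known from interferon signalling, read 101, 219, 307, 443 and 362 normalized counts, highest on day 10 as Stat3 was, with a change of 2.12 (1.83 to 2.45). Jak2, a kinase of gp130, read 42.6, 70.6, 147, 227 and 170 and changed by 2.39 (1.95 to 2.91) on that day. Jak3, known from blood cells, had 9, 42, 101, 177 and 106 counts, with a change of 2.96 (2.03 to 4.32) on day 2, where the 10 macrophage markers had risen too. Their part in the level of Jak3 was not tested. Stat5a and Stat5b are close copies, and their counts could be split wrongly.

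The list of other inhibitors was mixed. Of 15 listed and tested, Cish and Ptpn2 had fallen on day 2. Ptpn6 had risen on 2 and 4 counts, with an interval of -0.93 to 5.34, and did not pass 2-fold with TPM values, centred TPM values or a pseudocount of 5. On day 5 Socs1, Pias3 and Ptpn6 had risen, and Socs2 and Cish had fallen. On day 10 Socs7 and Ptpn6 had risen, and Socs2, Cish and Pias4 had fallen. On day 14 Socs1, Socs7 and Ptpn6 had risen and Cish had fallen. Those risen made up 6.67%, 20%, 13.3% and 20% of the list on days 2, 5, 10 and 14. Of all genes tested 15.2%, 20.2%, 28.7% and 24.5% had risen. Those fallen made up 13.3%, 13.3%, 20% and 6.67% of the list, against 13.1%, 13.6%, 22.3% and 19.9% of all genes. Ptpn6 passed the filter only through later libraries, so that a difference from day 0 was built in. The list medians were 0.09, 0.18, 0.31 and 0.13, near those of all genes. Pias3, which binds STAT3, read 132, 206, 337, 229 and 224 normalized counts and changed by 1.35 (1.07 to 1.65) on day 5. Socs7 reached 1.53 (1.00 to 2.15) on day 14. Relative to genes of like length Socs7 had not risen on day 10 or day 14, while Socs1 had on both. Ptpn2, a phosphatase of Janus kinases, read 111 normalized counts on day 0 and 47.0 on day 2. Ptpn6, a phosphatase of blood cells, had 2 counts on day 0 and 44 on day 5, as the macrophage marker sum peaked. The part of such cells was not tested.

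Cish, chosen after its values were seen, encodes a sister protein of SOCS3 that answers mainly to STAT5. It had 48.5, 12.7, 9.61, 11.4 and 13.6 normalized counts, and all 4 later libraries were below day 0 past 2-fold, by log2 changes of -1.86 (-3.32 to -0.79), -2.22, -1.99 and -1.76. Socs3 and Cish therefore went opposite ways on each day. Its window held TTCNNNGAA 2 times, at bases 1 to 9 and 12 to 20 counted from the start, where the annotation has an exon. Of the other STAT3 target genes described below, 4 of 22 with windows held these letters too, Gfap, Irf1, Steap4 and Zfp36. Among the other receptor chains the window of Il31ra did. The stricter TTCCNGGAA stood in the windows of Gfap, Steap4, Il31ra and Cish and not in that of Socs3. The Cish stretch is shown as a contrast to Socs3 and does not stand for the other genes with a match.
Cish, plus strand, chr9:107296659-107296678: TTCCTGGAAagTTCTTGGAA

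Of 26 other genes described as STAT3 targets, all of which passed the filter, 10, 13, 13 and 13 had risen and 5, 4, 6 and 5 had fallen on days 2, 5, 10 and 14. Of the 26, Steap4, Lcn2, Saa3, Hp, Lrg1, A2m and Gfap had 0 to 2 counts on day 0 and passed the filter only through later libraries, so that their rise was built in. They were 7 of the risen genes on every day, with Lcn2 and Lrg1 on 1 count on day 2. Of the other 19 genes 3, 6, 6 and 6 had risen, where 15.2%, 20.2%, 28.7% and 24.5% of all genes tested had. On day 10 Vegfa (1.00) and Hif1a (1.01) only just passed 2-fold, and neither did with DESeq2 size factors. The list medians over all 26 were 0.48, 0.87, 0.91 and 1.12, and with the 3 genes at 0 counts on day 0 set to their lower bound those of days 2 and 5 were 0.21 and 0.64. The 3 genes named by the rule on size of change are Steap4, Saa3 and Gfap, although Gfap, set to its lower bound, would come after Hp and Serpina3n. Serpina3n, a protease inhibitor of the acute phase, had 26.7, 84.3, 2426, 4773 and 3406 counts and a change of 6.96 (6.45 to 7.60) on day 10. Steap4, an iron and copper reductase induced in inflammation, had 2, 6, 513, 1737 and 886 counts, with a change of 8.70 (7.44 to 12.3) on day 10. Saa3, an acute phase protein, had 1, 4, 196, 650 and 282 counts and a change of 7.87 (6.39 to 14.2). Gfap, the glial filament gene, had 0, 7, 52, 308 and 150 counts, which made day 10 at least 74.1-fold higher than 3 counts on day 0 would be. All 3 were highest on day 10, as Stat3 was. On day 2 Steap4 on 6 counts, Saa3 on 4 and Gfap on 7 had passed 2-fold already, as Socs3 and Bcl3 had. The day 2 intervals of Steap4 and Saa3 reached below 0. Gfap is itself 1 of the 5 astrocyte markers and is known from Schwann cells too, and all 7 Schwann cell and neural crest markers had risen on day 10, when their sum was 5159 normalized counts against 79.9 on day 0. Their part in the level of Gfap was not tested.

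The shares of these 26 that had fallen were 19.2%, 15.4%, 23.1% and 19.2%, and those of all genes tested 13.1%, 13.6%, 22.3% and 19.9%. Myc, Pim1 and Gadd45g were below day 0 past 2-fold on all 4 later days, of which Myc, a growth regulator that serum is known to induce, read 502, 77.8, 97.1, 108 and 170 normalized counts. These 3 and the following genes were chosen after their values were seen. Timp1, an inhibitor of matrix proteases, read 7209 normalized counts on day 2 and 242 on day 10, with a change from day 0 of -4.09 (-4.26 to -3.93). Fos, Junb and Zfp36, early response genes, shared with Socs3 their highest level on day 14, and each rose between day 10 and day 14, by 1.69, 1.41 and 1.49, where Socs3 rose by 1.34. Adam10 and Adam17, which cut IL6RA off the cell surface, had both risen on days 10 and 14, also relative to genes of like length. Of all genes tested 28.7% and 24.5% had risen on these days, and 23.8% and 22.3% relative to like length. Adam17 read 96.3 normalized counts on day 0 and 476 on day 10.

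**Figure D5:**
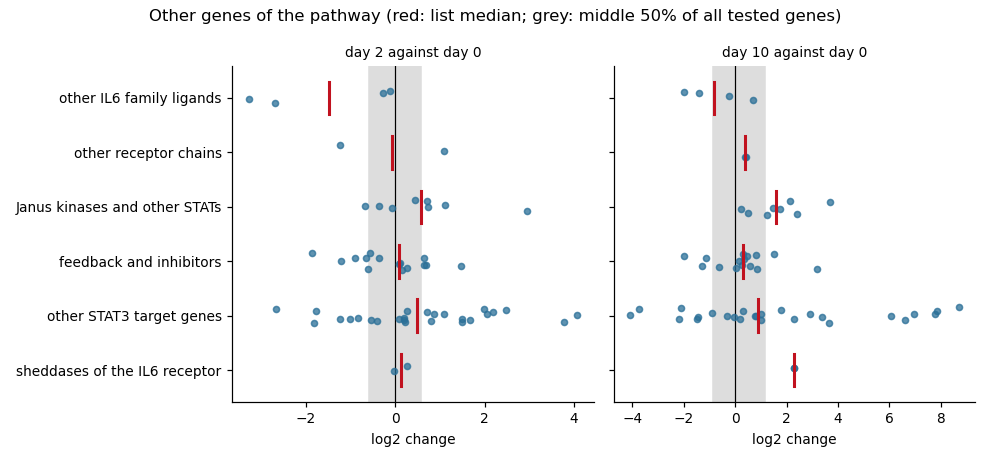
Log2 change from day 0 (horizontal axes) of the genes of 6 lists (vertical axis) on day 2 and on day 10, 1 point per gene that passed the filter on counts, with red bars at list medians and grey bands from the lower to the upper quartile of all genes tested. On day 10 the median of the Janus kinases and other STATs is 1.60 and that of the other ligands -0.82, and on day 2 they are 0.58 and -1.48. Relative to genes of like length those of day 10 are 0.74 and 0.02.

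The genes whose course was most like that of Stat3, by the root mean square difference of the 4 log2 changes from day 0 among 8272 genes with 100 or more counts, were Tm7sf3 (0.07), Tgs1 (0.07) and Capn7 (0.09). Il6st came at place 353 by this measure, Osmr at 1332 and Socs3 at 7474. For Socs3 they were H2-Q6 (0.27), whose near-identical copies make its counts uncertain, Fam78b (0.32) and Igfbp4 (0.38), and Bcl3 came at place 67, with 0.85. With 4 values per gene from single libraries these places are a description only.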

How the data were processed

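The 5 libraries were assigned to days by their labels, 1 per time point. The files that the authors deposited hold expected counts, which RSEM estimated gene by gene, and columns of TPM and FPKM. The submitters' processing notes name Bowtie, RSEM and mm10, and the annotation and versions are not given in the sources used here. The TPM values deposited by the authors served for levels between genes and for alternatives, and FPKM was not used. Expected counts were rounded to compute TMM factors in edgeR 4.0.16 (no count test was run), and were divided by the effective library size. Changes had a pseudocount of 1, and genes needed 10 or more counts in 1 or more libraries. Intervals (95%) were exact Poisson and Clopper-Pearson intervals of rounded counts, without molecular identifiers. The level of 3 counts, used as the floor, was 0.771 to 1.33 per 1000000 counts. On day 2 Gm42418 and Lars2 held 4.79% and 1.36% of counts. GENCODE M21 (GRCm38, the same assembly as mm10) gave symbols and coordinates for 27247 of 27729 genes. Promoter windows came from RefSeq (GRCm38.p6). The calculation was tested on simulated data.

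The members, the 6 lists of 66 other genes and the marker lists were chosen with earlier results of these data known. Genes named from a list were the 3 with the largest change from day 0 on any later day among genes with 100 or more counts, and for Stat3 and Socs3 the 3 with the nearest course. The alternatives were DESeq2 size factors, TPM values with and without centring on the median gene, centring within 20 bins of gene length, TMM factors without Gm42418 and Lars2, a pseudocount of 5 and no filter. They were extended to the 6 lists after the data had been seen. Some genes of the pathway are not reported here and were left out of the lists.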

Additional observations from a re-analysis of the deposited data

How the results depend on the processing

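The numbers of members past 2-fold were within 1.5 times the reported ones under DESeq2 size factors, TMM factors without Gm42418 and Lars2, a pseudocount of 5, centred TPM values and centring within length bins. With uncentred TPM values, in which the median of all genes moved from day 0 by -0.20, 0.61, 1.09 and 0.78 on days 2, 5, 10 and 14, 8 members in place of 4 were above day 0 on day 5, and 1, Il6ra, was below day 10 on day 14. Without the filter on counts 1 member was below day 0 on day 5 and 1 on day 10, Il6 both times, with 1 and 2 counts. Of 40 single changes, 15 left their counting interval with centring within length bins, 20 with uncentred and 5 with centred TPM values, and none under the other 4 alternatives. The rise of Il6ra on day 2 was lost under both TPM settings and the pseudocount of 5. No change past 2-fold turned its sign under any alternative. No paired analysis was possible because each time point has 1 library. Depth limits Il6 and, on days 0 and 2, Il6ra.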
